A study of Homo sapiens with 15 samples.

Results

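The stress response run by the transcription factor ATF4 was followed through a drug experiment in UKE1 cells by 8 of its genes: ATF4, CEBPG, CEBPB, ATF5, DDIT3 (which encodes CHOP), ATF3, TRIB3 and PPP1R15A. They were chosen by name from the 58735 genes of the count table, and 8 of 8 were among the 16146 genes with enough reads to be tested. UKE1 is an established human leukaemia cell line that arose from a myeloproliferative neoplasm, and every library came from this 1 line. RNA was sequenced in 15 libraries, 3 for each of 5 groups, taken 3 h after treatment. One group was untreated and another was stimulated with TNF-α alone. The remaining groups were stimulated with TNF-α and then received MCL, ruxolitinib or both (the combination). MCL is read as micheliolide, a plant sesquiterpene lactone that the series title names. Ruxolitinib inhibits the kinases JAK1 and JAK2. Every drug group also received TNF-α, so the TNF-α group is the control for the drugs, and no group received a drug without TNF-α. The sources used here give neither doses nor the duration of TNF-α exposure, and do not say whether replicates were separate cultures. A p-value below thus reflects only how far these libraries spread, and that spread may be technical.

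In the integrated stress response, kinases that sense amino acid shortage, misfolded protein in the endoplasmic reticulum, haem shortage or viral RNA phosphorylate the translation factor eIF2. Most protein synthesis then slows while translation of ATF4 mRNA increases, and ATF4 protein, a basic leucine zipper (bZIP) factor that pairs with C/EBP proteins such as CEBPG, switches on genes for amino acid uptake and synthesis, redox defence and, when stress lasts, cell death through CHOP. TRIB3 and PPP1R15A close feedback loops on this program, and RNA counts measure transcripts only, not eIF2 phosphorylation or ATF4 protein.

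Library totals ranged from 15476399 to 18035604 counts. Levels are given as CPM, each count divided by its library's total and TMM factor and expressed on the usual CPM scale, and changes as log2 fold changes with their standard errors (SE). A change passed at an adjusted p under 0.05 in edgeR's quasi-likelihood test, with Benjamini-Hochberg adjustment over all tested genes. The label of the cells as haematopoietic was checked against 11 markers, of which CD34 (958 to 1295 CPM) and PTPRC (296 to 354 CPM) were high in every library and MPO stayed at or below 1.33 CPM. EPCAM, KRT19, CDH1 and MS4A1, markers of epithelial and B cells, had no count, while CDH5, an endothelial cadherin, was at 162 to 263 CPM.

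The start regions of 4 of the 5 genes that rose with MCL and rose further with both drugs are shown. The fifth, ATF4, is left out because its windows hold too few bases outside exons to print, and neither window matched any of the motifs searched. They were searched on both strands for the C/EBP-ATF response element (TGATGNAAN), the composite site that ATF4 and a C/EBP partner bind, and for the cyclic AMP response element (TGACGTCA), a site of ATF and CREB factors. Sequences are from RefSeq on GRCh38.p14, run 5′ to 3′ on the strand of the gene, leave out exons, and have a match to either motif in capitals. The ATF3 stretch is chr1:212565157-212565333 (plus strand), upstream of the gene. The CEBPG stretch is chr19:33373896-33374112 (plus strand), in the first intron of a longer CEBPG transcript. The PPP1R15A stretch is chr19:48872171-48872391 (plus strand), upstream of the gene, and the DDIT3 stretch is chr12:57520518-57520709 (minus strand), inside the longest DDIT3 gene model.
ATF3: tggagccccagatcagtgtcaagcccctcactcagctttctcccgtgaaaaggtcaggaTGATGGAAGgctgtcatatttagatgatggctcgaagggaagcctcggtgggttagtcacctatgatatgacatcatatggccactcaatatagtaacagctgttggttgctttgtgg
CEBPG: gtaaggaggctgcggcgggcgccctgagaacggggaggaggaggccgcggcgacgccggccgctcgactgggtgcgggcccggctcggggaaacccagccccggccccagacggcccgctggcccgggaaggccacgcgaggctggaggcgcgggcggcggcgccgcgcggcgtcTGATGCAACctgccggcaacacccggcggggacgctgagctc
PPP1R15A: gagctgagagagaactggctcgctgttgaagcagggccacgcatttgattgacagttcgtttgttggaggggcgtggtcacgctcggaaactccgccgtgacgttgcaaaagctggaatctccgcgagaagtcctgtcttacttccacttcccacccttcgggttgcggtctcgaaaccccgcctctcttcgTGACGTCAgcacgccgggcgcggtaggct
DDIT3: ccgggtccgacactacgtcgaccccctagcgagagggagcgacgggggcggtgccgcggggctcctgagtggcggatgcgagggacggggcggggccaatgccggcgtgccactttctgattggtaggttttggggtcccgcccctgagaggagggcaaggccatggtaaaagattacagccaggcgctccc

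The response element was found 191 bases before the more upstream ATF3 start and 42 bases before a CEBPG start. The other windows of ATF3 and CEBPG held no match to it. It occurs in 3.61% of 35116 RefSeq start windows of the same length (250 bases before to 50 after a start). The cyclic AMP element stood 58 bases before the PPP1R15A start and occurs in 1.85% of the windows. The DDIT3 windows held neither. For the 8 genes together, the antioxidant response element TGACNNNGC was found in windows of CEBPB, PPP1R15A and TRIB3 (13.3% of all windows), and the C/EBP motif TTGCNNAA in windows of ATF3, ATF5 and PPP1R15A (10.5%). The NF-kB motif GGGNNTTCC (6.58%) and the STAT motif TTCNNNGAA (7.66%) were in none of them. PPP1R15A has 2 C/EBP matches, and the one 147 bases before its start overlaps the antioxidant match 152 bases before it. These are letter matches in short windows and say nothing of binding.

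ATF4 was the most abundant of the 8 genes. Per kilobase of exon it stood at 141 CPM per kb in untreated cells and 272 CPM per kb with both drugs, and the other 7 genes lay between 0.965 and 31.6 CPM per kb in every group. In the 3 untreated libraries ATF4 measured 355, 349 and 362 CPM, after TNF-α 402, 393 and 414 CPM, with MCL 566, 589 and 569 CPM, with ruxolitinib 396, 421 and 410.1 CPM, and with the combination 665, 686 and 704 CPM. The MCL libraries lay above every TNF-α and ruxolitinib library, the combination libraries lay above the MCL libraries, and the ruxolitinib and TNF-α ranges overlapped. MCL raised ATF4 by 0.51 (SE 0.03, adjusted p = 2.20e-20) against TNF-α, and the combination raised it by 0.77 (SE 0.03, adjusted p = 1.05e-29). With ruxolitinib alone the difference from TNF-α was 0.02, with a 95% interval from -0.04 to 0.09.

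CEBPG, a C/EBP protein without a transactivation domain that pairs with ATF4, followed the same order. It measured 42.3, 41.9 and 40.4 CPM in untreated cells, 47.4, 43.2 and 48.6 CPM after TNF-α, 68.3, 71.6 and 64.8 CPM with MCL, 45.8, 49.2 and 45.0 CPM with ruxolitinib, and 86.9, 84.2 and 84.8 CPM with both. All MCL libraries exceeded all TNF-α libraries, and all combination libraries exceeded all MCL libraries. The log2 change against TNF-α was 0.56 (SE 0.06) with MCL and 0.88 (SE 0.05) with the combination. Its difference between TNF-α and untreated cells was small (0.16, adjusted p = 0.0321) and did not pass without a count filter (adjusted p = 0.135), with DESeq2 size factors (0.0568), with library totals (0.0942) or in the DESeq2 test (0.0844). It was also lost without untreated replicate 1 (0.16, adjusted p = 0.0642), 2 (0.16, 0.0648) or 3 (0.14, 0.140), TNF-α replicate 1 (0.14, 0.121) or 3 (0.12, 0.198), or ruxolitinib replicate 2 (0.14, 0.0547).

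DDIT3 encodes CHOP, a C/EBP-family factor linked to cell death under lasting stress. Its 3 untreated libraries were at 5.30, 5.28 and 3.99 CPM, the TNF-α libraries at 6.05, 6.61 and 7.27 CPM, the MCL libraries at 12.1, 12.7 and 11.9 CPM, the ruxolitinib libraries at 6.55, 7.22 and 5.50 CPM and the combination libraries at 31.6, 31.1 and 35.7 CPM. The combination libraries stood far above the rest, the MCL libraries formed a middle level and the ruxolitinib libraries overlapped those with TNF-α. DDIT3 rose 1.84-fold with MCL (log2 0.88, SE 0.12, adjusted p = 2.96e-08) and 4.93-fold with both drugs (log2 2.30, SE 0.11, adjusted p = 2.24e-27). The rise after TNF-α (0.45, adjusted p = 0.0105) did not pass without untreated replicate 3 (0.32, adjusted p = 0.124) or TNF-α replicate 3 (0.38, adjusted p = 0.0768).

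ATF3, a stress-induced bZIP factor that represses or activates its targets depending on its partner, had the largest fold change of the 8 genes with MCL and with the combination, each against TNF-α. Untreated libraries held 4.61, 3.44 and 3.63 CPM, TNF-α libraries 6.31, 6.01 and 5.28 CPM, MCL libraries 14.1, 13.3 and 13.3 CPM, ruxolitinib libraries 5.40, 5.73 and 5.61 CPM, and combination libraries 38.1, 37.3 and 41.0 CPM. No MCL or combination library overlapped the TNF-α libraries. Against TNF-α it rose 2.31-fold with MCL (log2 1.21, SE 0.12, adjusted p = 3.24e-13) and 6.62-fold with both drugs (log2 2.73, SE 0.10, adjusted p = 4.00e-32), which ranked 40 among the 16146 tested genes by fold. The mean level was 3.90 ± 0.63 CPM (SD, n = 3) in untreated cells and 38.8 ± 2.0 CPM with the combination.

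PPP1R15A encodes GADD34, the subunit that brings a phosphatase to eIF2 and ends the translational block. It rose from 44.8, 47.6 and 46.3 CPM in untreated cells to 69.1, 62.5 and 64.4 CPM after TNF-α. With MCL it was at 78.4, 71.5 and 86.7 CPM, with ruxolitinib at 66.6, 66.9 and 60.1 CPM and with both at 92.6, 97.1 and 103 CPM. The MCL libraries spread most but stayed above every TNF-α library, and the combination libraries stayed above the MCL libraries. The log2 changes were 0.50 (SE 0.06) after TNF-α, 0.27 (SE 0.06) for MCL against TNF-α and 0.58 (SE 0.06) for the combination against TNF-α.

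TRIB3, a pseudokinase that binds ATF4 and AKT and is itself an ATF4 target, followed another order. Its untreated libraries were at 49.2, 49.4 and 47.0 CPM, TNF-α libraries at 41.4, 40.2 and 40.2 CPM, MCL libraries at 48.2, 50.5 and 43.1 CPM, ruxolitinib libraries at 26.6, 27.6 and 27.3 CPM and combination libraries at 47.2, 49.3 and 47.0 CPM. It was lowest in all 3 ruxolitinib libraries, and the untreated, MCL and combination ranges overlapped. Against TNF-α, TRIB3 fell with ruxolitinib by 0.58 on the log2 scale (SE 0.07, adjusted p = 1.18e-10) and rose by 0.22 (SE 0.06) with MCL and 0.24 (SE 0.06) with both. Without MCL replicate 2 the rise with MCL did not pass (0.17, adjusted p = 0.0530). The combination differed from untreated cells by -0.02, with a 95% interval from -0.14 to 0.10.

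ATF5, a bZIP factor of the mitochondrial stress response that is also controlled by translation, moved against ATF4 when the drugs were combined. It measured 41.8, 46.7 and 49.8 CPM in untreated cells, 66.4, 70.6 and 73.7 CPM after TNF-α, 59.5, 69.8 and 63.2 CPM with MCL, 67.3, 70.5 and 64.2 CPM with ruxolitinib and 48.1, 54.2 and 52.3 CPM with both. The combination libraries lay below all other TNF-α stimulated libraries and overlapped the untreated ones. ATF5 rose by 0.61 (SE 0.06) after TNF-α, and with both drugs it fell by 0.45 on the log2 scale against TNF-α (SE 0.06, adjusted p = 6.79e-09). With MCL its difference was -0.13 (adjusted p = 0.0955), which passed only without MCL replicate 2 (-0.19, adjusted p = 0.0214).

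CEBPB, a C/EBP factor of inflammation and myeloid differentiation, had the smallest difference with MCL of the 8 genes (0.06, adjusted p = 0.702). It stood at 11.5, 12.5 and 11.4 CPM in untreated cells, 17.2, 19.5 and 19.5 CPM after TNF-α, 21.1, 17.8 and 19.6 CPM with MCL, 13.8, 15.4 and 15.4 CPM with ruxolitinib and 23.1, 20.7 and 19.7 CPM with both. The ruxolitinib libraries lay between the untreated and the TNF-α libraries, and the MCL and TNF-α ranges overlapped. It rose by 0.67 (SE 0.10) after TNF-α and fell by 0.33 on the log2 scale (SE 0.10, adjusted p = 0.00915) with ruxolitinib. The fall was lost when TNF-α replicate 2 (adjusted p = 0.0606 at -0.30), TNF-α replicate 3 (0.0566 at -0.30) or ruxolitinib replicate 1 (0.0770 at -0.28) was left out. The difference between the combination and TNF-α was 0.17 (adjusted p = 0.0987), although the 2 ranges did not overlap, and it passed with library totals (0.25, adjusted p = 0.0165) or without combination replicate 3 (0.23, adjusted p = 0.0479).

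**Figure D1:**
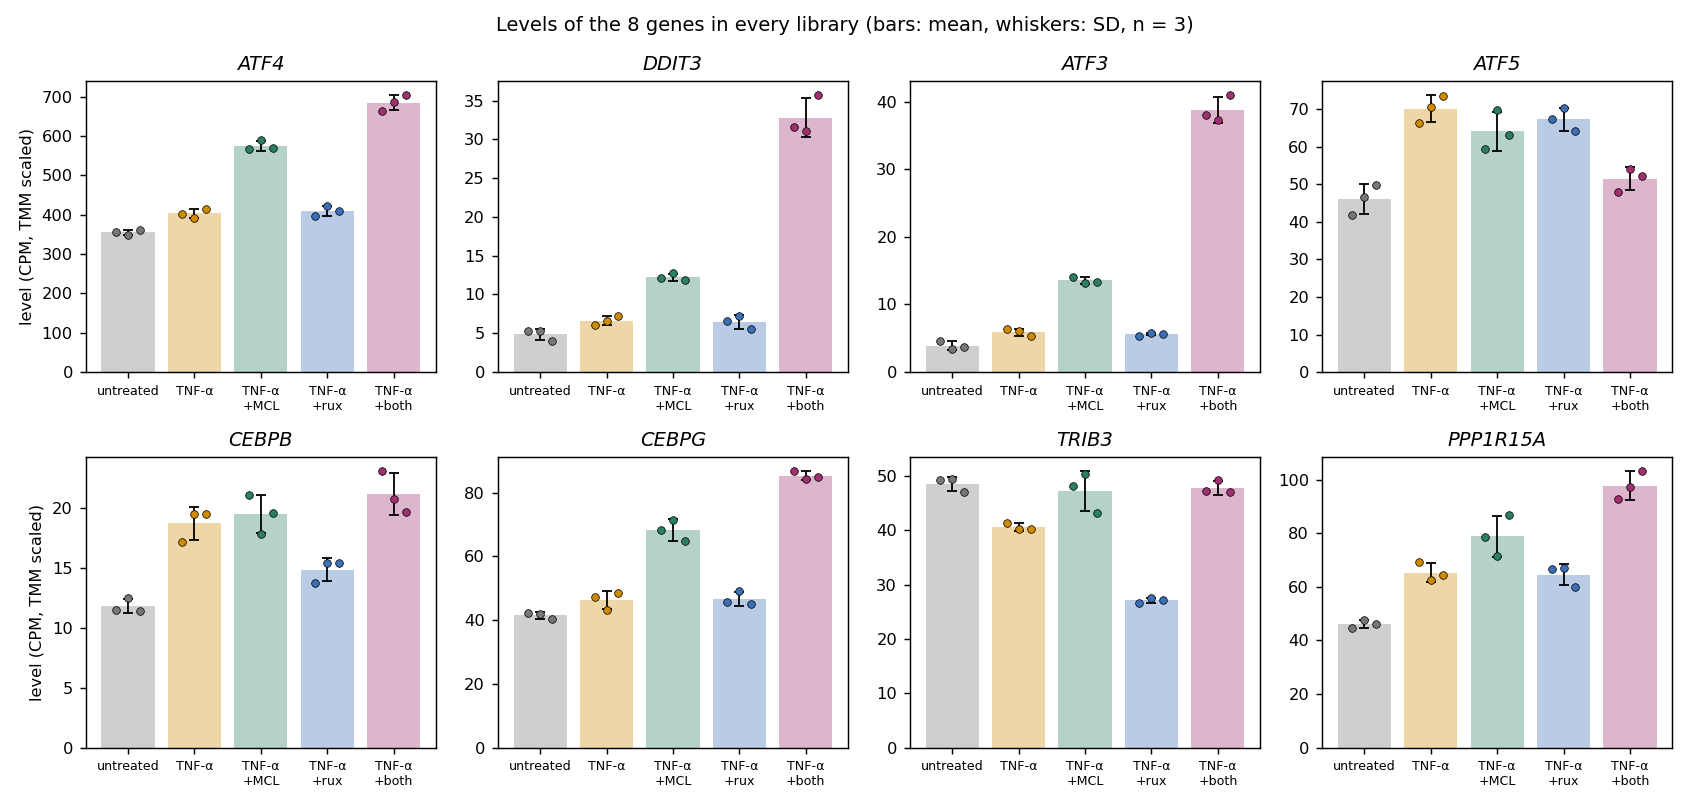
Level of each of the 8 genes in CPM (vertical axes, linear and starting at 0, with a scale of their own) in the 5 groups; points are libraries, bars are means and whiskers are SD (n = 3). DDIT3 and ATF3 stand highest in the combination libraries (31.1 to 35.7 and 37.3 to 41.0 CPM), TRIB3 is lowest with ruxolitinib (26.6 to 27.6 CPM), and ATF5 with both drugs (48.1 to 54.2 CPM) overlaps the untreated libraries.

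The first comparison, TNF-α against untreated cells, addresses the inflammatory stimulus that all drug groups share. Of the 8 genes 7 rose and TRIB3 fell (by 0.26 on the log2 scale, SE 0.06), against 26.6% of all tested genes that passed in either direction (14.1% higher and 12.5% lower). The rises were largest for CEBPB, ATF5 and ATF3 (0.59, SE 0.14) and smallest for ATF4 (0.18, SE 0.03) and CEBPG. The median log2 change of the 8 genes was 0.47, beside 0.00 for all tested genes.

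MCL after TNF-α raised 6 of the 8 genes, ATF3, DDIT3, CEBPG, ATF4, PPP1R15A and TRIB3, while ATF5 and CEBPB did not pass. Of all tested genes, 26% passed in this comparison, 10.9% higher and 15.1% lower. The median of the 8 genes was 0.39, beside -0.02 for all tested genes.

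Ruxolitinib after TNF-α changed 2 of the 8 genes, CEBPB and TRIB3, and both fell, with 15.7% of all tested genes passing (5.15% higher and 10.6% lower). For the other 6 the largest difference was -0.07 for ATF3, whose 95% interval ran from -0.34 to 0.20. The interval of DDIT3 ran from -0.32 to 0.22, and a smaller change in either direction of these genes was not detectable with 85 to 117 counts per library in the 2 groups. For PPP1R15A the interval was -0.13 to 0.10.

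Both drugs after TNF-α raised 6 of the 8 genes and lowered ATF5, and 54.8% of all tested genes passed (25.5% higher and 29.3% lower). CEBPB did not pass. The median of the 8 genes was 0.67, beside -0.03 for all tested genes. The 11 haematopoietic markers moved in the same libraries: their summed level was 3187 to 3230 CPM in the TNF-α libraries, 2608 to 2630 CPM under MCL, 3109 to 3117 CPM under ruxolitinib and 1941 to 2000 CPM under both, and 8 of the 11 fell with the combination, GATA2 by 2.10 on the log2 scale. The share of counts from mitochondrial genes was 5.12% ± 0.15 (SD, n = 3) in the TNF-α group, 4.55% ± 0.22 under MCL, 5.49% ± 0.05 under ruxolitinib and 4.30% ± 0.14 under both. In bulk RNA, fewer cells of a type and less RNA per cell cannot be told apart. The summed level of the 11 markers of other cell types, of which 4 were tested and CDH5 made up most, was 222 to 232 CPM with TNF-α and 187 to 193 CPM with the combination. The part of these shifts in the changes of the 8 genes was not tested.

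**Figure D2:**
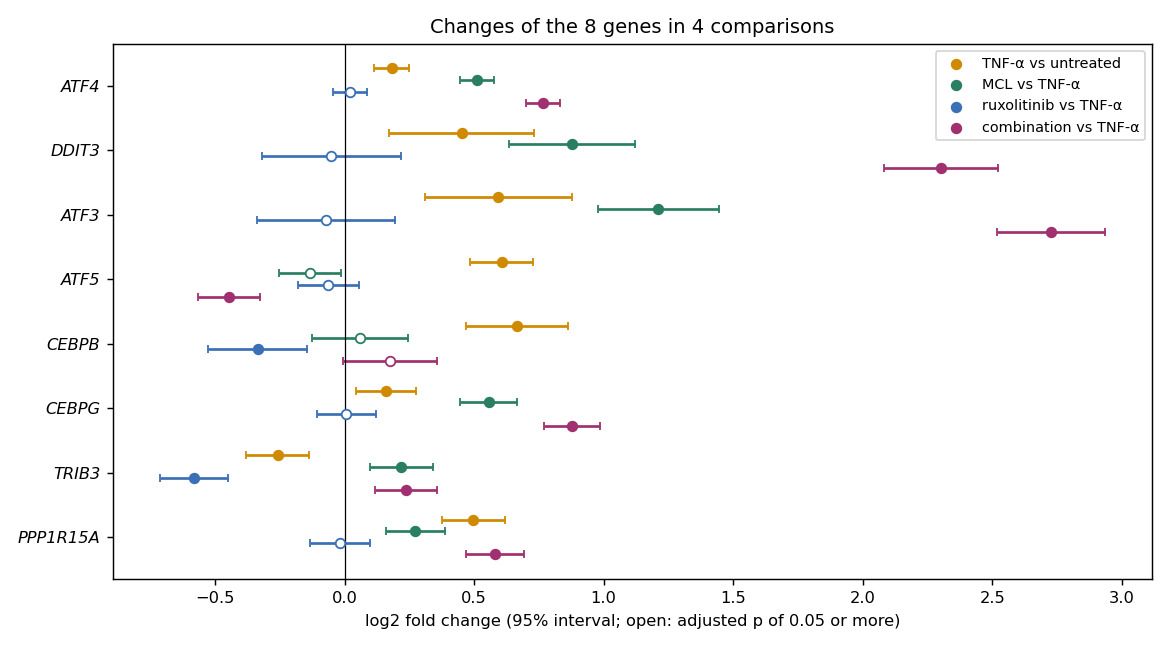
Log2 fold change (horizontal axis) of each gene in 4 comparisons, with 95% intervals; filled points passed at an adjusted p under 0.05 and open points did not. MCL and combination points lie to the right of 0 for ATF4, DDIT3, ATF3, CEBPG, TRIB3 and PPP1R15A, while the ruxolitinib points lie near 0 except for CEBPB (-0.33) and TRIB3 (-0.58).

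Adding ruxolitinib to MCL was read from the combination against MCL. ATF3 (1.52, SE 0.09), DDIT3 (1.42, SE 0.10), CEBPG (0.32, SE 0.05), PPP1R15A (0.31, SE 0.05) and ATF4 (0.25, SE 0.03) rose, ATF5 fell by 0.31 on the log2 scale (SE 0.06), and CEBPB (0.12) and TRIB3 (0.02) did not pass. These 6 of 8 stand beside 41.6% of all tested genes (19.6% higher and 22% lower). Adding MCL to ruxolitinib, the combination against ruxolitinib, changed 8 of 8 genes, 7 of them upwards, with 51.7% of all tested genes passing (24.8% higher and 26.8% lower). TRIB3 rose by 0.82 (SE 0.06) and CEBPB by 0.51 (SE 0.09) in that comparison, and ATF5 fell by 0.38 on the log2 scale. The single drugs differed from each other in 7 of the 8 genes, all higher with MCL, with 27.5% of all tested genes passing (14.3% higher and 13.1% lower), and ATF5 was the gene that did not pass (-0.07, 95% interval -0.19 to 0.05).

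Against untreated cells, 7 of the 8 genes were higher with MCL (34.1% of all tested genes passed, 17.2% higher and 16.9% lower), 7 were higher and TRIB3 lower with ruxolitinib (36.8%, of which 17.8% higher and 19% lower), and 7 were higher with the combination (57.4%, of which 28.3% higher and 29.1% lower). In the combination ATF3 was 3.32 (SE 0.11) and DDIT3 2.75 (SE 0.11) above untreated cells on the log2 scale. ATF5 was 0.16 above untreated cells (adjusted p = 0.0243) with overlapping libraries, and this was lost without untreated replicate 1 (0.11, adjusted p = 0.170), combination replicate 2 (0.12, adjusted p = 0.133) or combination replicate 3 (0.15, adjusted p = 0.0696). The ruxolitinib differences of CEBPG (0.17) and DDIT3 (0.40) were also lost without single libraries. CEBPG did not pass without untreated replicate 3 (0.15, adjusted p = 0.0763) or ruxolitinib replicate 2 (0.13, adjusted p = 0.116). DDIT3 did not pass without untreated replicate 3 (0.28, adjusted p = 0.167), ruxolitinib replicate 1 (0.38, adjusted p = 0.0558) or ruxolitinib replicate 2 (0.31, adjusted p = 0.127).

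Ordered by mean level, several neighbouring groups did not differ beyond their spread. Ruxolitinib and TNF-α were such neighbours for ATF3, ATF4, ATF5, CEBPG, DDIT3 and PPP1R15A. MCL and ruxolitinib were for ATF5, TNF-α and MCL as well as MCL and the combination for CEBPB, and MCL, the combination and untreated cells for TRIB3.

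Whether the drugs together gave more than the sum of their single effects was tested as the non-additive effect. It subtracts the summed log2 changes of the single drugs from the log2 change with both, each against TNF-α. It passed for 8 of the 8 genes, 7 upwards and ATF5 downwards, where 25% of all tested genes passed (12.2% upwards and 12.8% downwards). For ATF3 the single changes summed to 1.14 and the measured change was 2.73, a level 3.00-fold above the sum. For DDIT3 they summed to 0.83 against 2.30 measured, a level 2.78-fold above the sum. ATF4 exceeded its sum of 0.53 by 0.23 (SE 0.05), and CEBPG its sum of 0.56 by 0.32 (SE 0.08). For TRIB3 the sum was -0.36 and the measured change 0.24, and for CEBPB the sum was -0.28 and the measured difference 0.17. The effect of ATF5 (-0.25, adjusted p = 0.0216) did not pass without TNF-α replicate 1 (-0.22, adjusted p = 0.0709), MCL replicate 2 (-0.19, 0.0945), ruxolitinib replicate 2 (-0.23, 0.0562) or combination replicate 1 (-0.21, 0.0848).

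**Figure D3:**
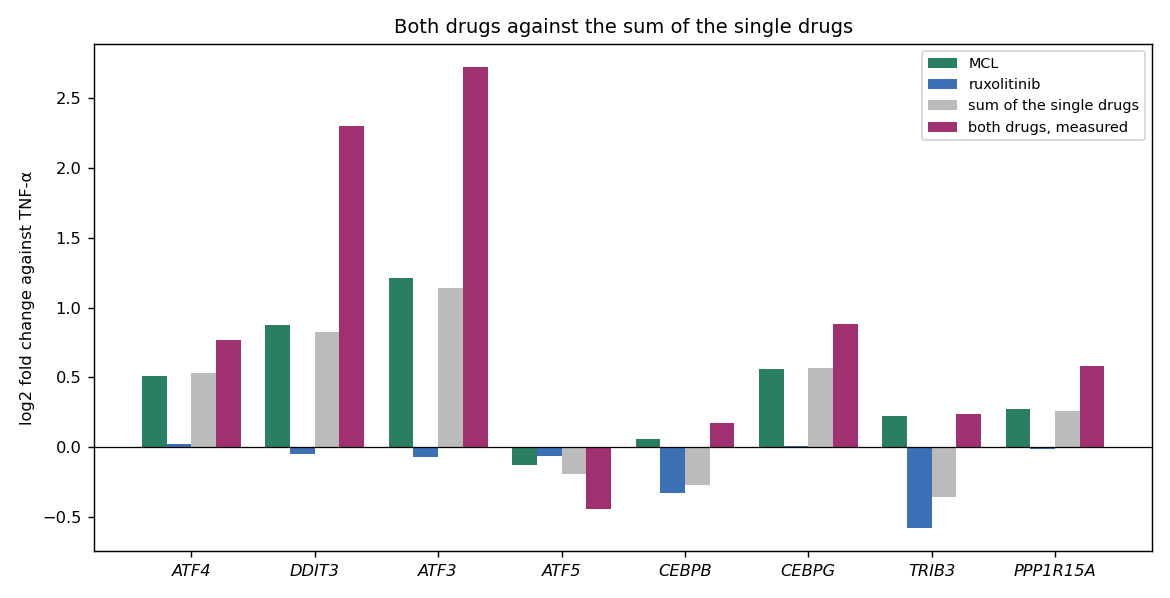
Log2 change against TNF-α (vertical axis, bars from 0) with MCL, with ruxolitinib, the sum of both single changes, and the measured change with both drugs, for each of the 8 genes. The measured bar exceeds the sum most for ATF3 (2.73 against 1.14) and DDIT3 (2.30 against 0.83) and lies below it for ATF5 (-0.45 against -0.19).

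Over the 15 libraries the log2 levels of ATF4 and CEBPG had a Pearson r of 0.992 and those of ATF3 and DDIT3 an r of 0.988. TRIB3 had an r of 0.10 to 0.40 with the genes other than ATF5, and ATF5 with TRIB3 had an r of -0.55. These points share the 5 groups and the library scaling, so the r describes a common group pattern. Among 9921 genes compared, those with the most similar pattern were CHAC1 (r = 0.991), a glutathione-degrading enzyme, and PMAIP1 (0.990), which encodes the cell death protein NOXA, for ATF3; SLC7A11 (0.990), the cystine transporter, and FTH1 (0.990), the ferritin heavy chain, for ATF4; and CHAC1 (0.990) and SLC7A11 (0.989) for CEBPG. For DDIT3 they were ZFAND2A (0.988) and DEDD2 (0.987), for PPP1R15A CXCL3 (0.976), and for TRIB3 KLHL8 (0.979) and SLC39A14 (0.977). ATF5 was most like EI24 (0.966) and TNFRSF9 (0.964), and CEBPB most like WARS (0.952) and PIM1 (0.933).

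Most tested genes of a list of known ATF4 targets rose with MCL. The list was chosen with earlier results of these data known. Of 33 listed 27 were tested, and 23 rose with MCL and 1 fell, with a median log2 change of 0.38, where 10.9% of all tested genes were higher and 15.1% lower. SLC7A11 was at 12.2 ± 0.70 CPM in the TNF-α libraries, 102 ± 2.1 CPM in the MCL libraries and 267 ± 6.1 CPM in the combination libraries (log2 3.07 and 4.45 against TNF-α). CHAC1 rose by 1.74 and 3.25, and SLC38A2, a neutral amino acid transporter, by 0.63 and 1.54. With the combination 24 rose and 1 fell, with a median of 0.72, where 25.5% of all tested genes were higher and 29.3% lower. The gene that fell in both comparisons was GDF15, a stress cytokine, named after its values were seen, at 3.50 ± 0.15 CPM in the TNF-α libraries, 1.19 ± 0.61 CPM in the MCL libraries and 1.39 ± 0.45 CPM in the combination libraries. After TNF-α 10 rose and 4 fell (all tested genes: 14.1% and 12.5%), with MTHFD2 at 0.41 and SLC7A5 at -0.27. With ruxolitinib 3 rose and 7 fell (all tested genes: 5.15% and 10.6%), with SLC7A5 at -0.45 and SLC7A1 at -0.28. The 3 became 5 with library totals or DESeq2 size factors. The non-additive effect passed upwards for 18 and downwards for 0 of the 27 (all tested genes: 12.2% and 12.8%), with a median of 0.50, beside 0.01 for all tested genes, and was 1.75 (SE 0.09) for SESN2, a stress-induced regulator of mTORC1. Of the other 6 listed targets, ASNS, the asparagine synthetase, had 9 counts in all 15 libraries together, PSAT1 had 4 and FGF21 had 0.

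Of 36 listed genes of the bZIP family outside the 8, 34 were tested. With MCL 11 rose and 11 fell, where 10.9% of all tested genes were higher and 15.1% lower. With the combination 14 rose and 11 fell (all tested genes: 25.5% and 29.3%), so the number that fell is near the background. With ruxolitinib 3 rose and 9 fell (5.15% and 10.6%), and after TNF-α 9 rose and 9 fell (14.1% and 12.5%). MAFG, a small partner of NRF2, rose by 1.64 with MCL and 2.21 with both, and BACH1, the haem-regulated repressor that competes with NRF2, by 0.54 and 0.98. JUNB, an AP-1 subunit, rose by 1.75 after TNF-α and fell with MCL by 0.77 and with both by 1.87 on the log2 scale. BATF2, an interferon-responsive factor, fell by 2.41 on the log2 scale with ruxolitinib.

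Of 20 genes for eIF2, its kinases, exchange factor, phosphatases and regulators, 3 rose and 3 fell with MCL, where 10.9% of all tested genes were higher and 15.1% lower. With the combination 4 rose and 7 fell (all tested genes: 25.5% and 29.3%), and after TNF-α 2 rose and 3 fell (14.1% and 12.5%), all near the background. With ruxolitinib 0 rose and 4 fell (5.15% and 10.6%), and 2 fell with library totals or DESeq2 size factors. EIF2AK2, the kinase of viral RNA known as PKR, rose by 0.46 after TNF-α and fell with MCL by 0.34, with ruxolitinib by 0.85 and with both by 0.83 on the log2 scale. DNAJC3, which inhibits eIF2 kinases, rose by 0.32 with MCL and 0.84 with both, and EIF2S2 by 0.30 and 0.53. For EIF2AK1, EIF2AK3 and EIF2AK4, named after their values were seen, the change with MCL was -0.03, -0.05 and 0.03 and did not pass.

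The other arms of endoplasmic reticulum stress were listed through IRE1, ATF6 and the chaperones they induce, 19 genes in all. With MCL 14 rose and 1 fell, with a median of 0.18, where 10.9% of all tested genes were higher and 15.1% lower. With the combination 12 rose and 2 fell (1 with library totals), beside 25.5% and 29.3% of all tested genes, and with ruxolitinib 0 rose and 9 fell, beside 5.15% and 10.6%. HSPA5, the chaperone BiP, was at 555 ± 10 CPM in the TNF-α group, 724 ± 17 CPM under MCL, 456 ± 16 CPM under ruxolitinib and 791 ± 28 CPM under both. HERPUD1, a degradation factor of the reticulum, rose by 0.66 with MCL and 1.36 with both and fell by 0.30 on the log2 scale with ruxolitinib. Of 7 genes linked to CHOP, 2 rose and 1 fell with MCL, where 10.9% of all tested genes were higher and 15.1% lower. With the combination 4 rose and 2 fell (all tested genes: 25.5% and 29.3%). In both comparisons the numbers that fell are near the shares of all tested genes, and a list of 7 genes is short. PMAIP1 rose by 1.12 and 2.07 and ERO1A, an oxidase of the reticulum, by 0.42 with MCL. TNFRSF10B, a death receptor that CHOP is known to induce, fell with MCL by 0.43 and with both by 0.61 on the log2 scale. TNFRSF10A of the same list fell with both by 0.58 and with ruxolitinib alone by 0.65 on the log2 scale. Of 4 tested relatives and partners of TRIB3, TRIB1 fell in all 4 comparisons, by 1.34 on the log2 scale with both drugs. Some genes, XBP1, ATF6 and JDP2, stand in more than 1 list.

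**Figure D4:**
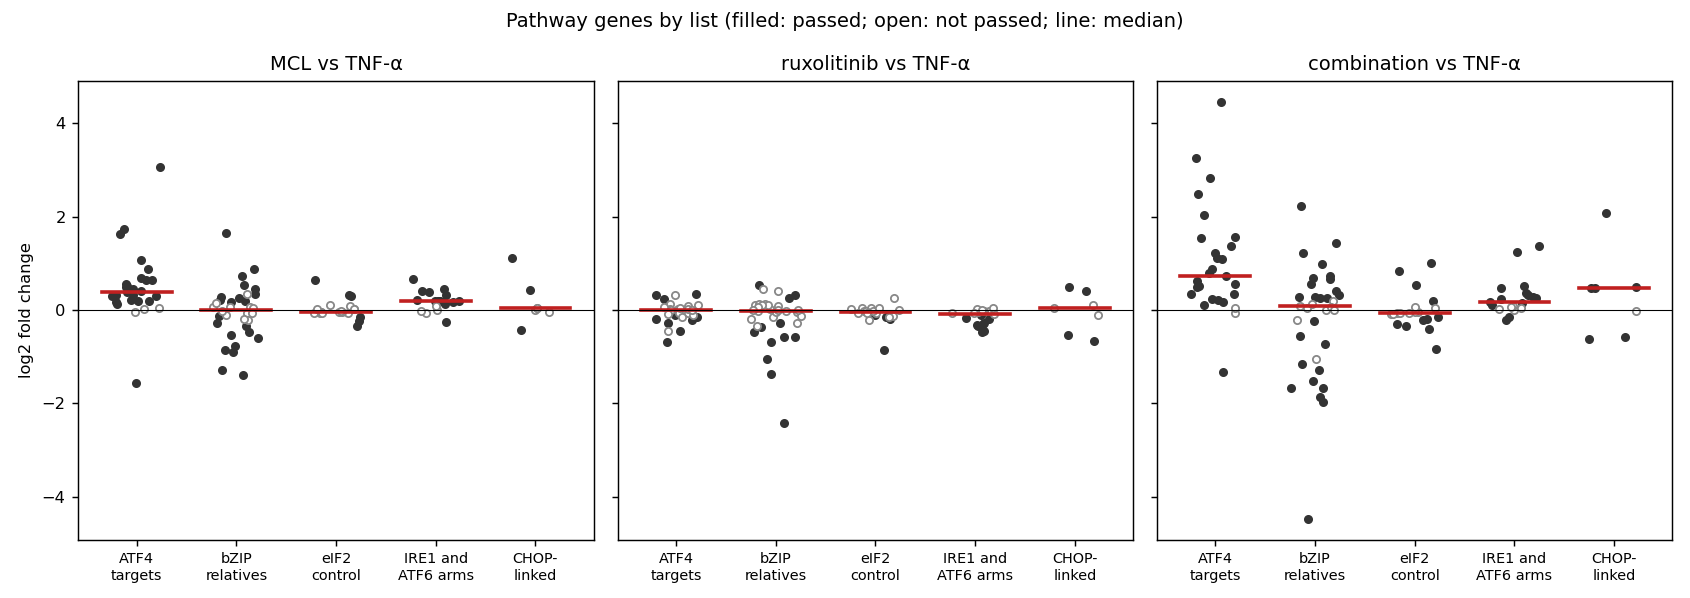
Log2 fold change (vertical axis) of every tested gene of 5 lists in 3 comparisons; filled points passed, open points did not and the red line is the median of the list. ATF4 targets lie mostly above 0 with MCL and the combination (medians 0.38 and 0.72) and around 0 with ruxolitinib, and the bZIP relatives spread to both sides.

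DDIT3, ATF5 and CEBPB share exon bases with other genes. Whether the counting used strand is not stated in the sources here, so reads shared with a gene on the other strand cannot be separated. DDIT3 (chr12, 57516588 to 57521737, minus strand) shares 39.6% of its 1307 exon bases, of which 355 lie in exons of MARS, the methionyl tRNA synthetase gene on the plus strand, and 58 in exons of MBD6. A further 105 lie in exons of AC022506.1, a gene on the strand of DDIT3 that had no count. MARS was at 201 CPM in the TNF-α group, 231 CPM with MCL and 239 CPM with both (log2 0.20 and 0.25). MBD6 was at 73.5 CPM in the TNF-α group and 96.7 CPM with both (log2 0.40). DDIT3 itself had means of 6.64 CPM in the TNF-α group and 32.8 CPM with both, so both neighbours stood at higher levels. MIR616, inside a DDIT3 intron on its strand, had 165 counts in all and rose by 2.68 with both. ATF5 (chr19, 49928702 to 49933935, plus strand) shares 23.7% of its exon bases, 700 in all. Of these, 626 lie in exons of NUP62, a nuclear pore gene on the minus strand. The 75 bases shared with IL4I1, an amino acid oxidase gene, lie within those shared with NUP62. ATF5 shares 74 with MIR4751, a gene on its own strand that had no count. NUP62 fell with both drugs by 0.78 and IL4I1 by 1.91 on the log2 scale, the direction of ATF5. After TNF-α, NUP62 rose by 0.32 and IL4I1 by 3.96 against untreated cells, also the direction of ATF5. CEBPB (chr20, 50190734 to 50192689, plus strand) shares 231 bases, 11.8%, with the antisense gene CEBPB-AS1, which had 215 counts in all and rose by 1.69 with both. The part of these neighbours in the values of DDIT3, ATF5 and CEBPB was not tested. ATF3, ATF4, CEBPG, PPP1R15A and TRIB3 share no exon base with another gene.

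**Figure D5:**
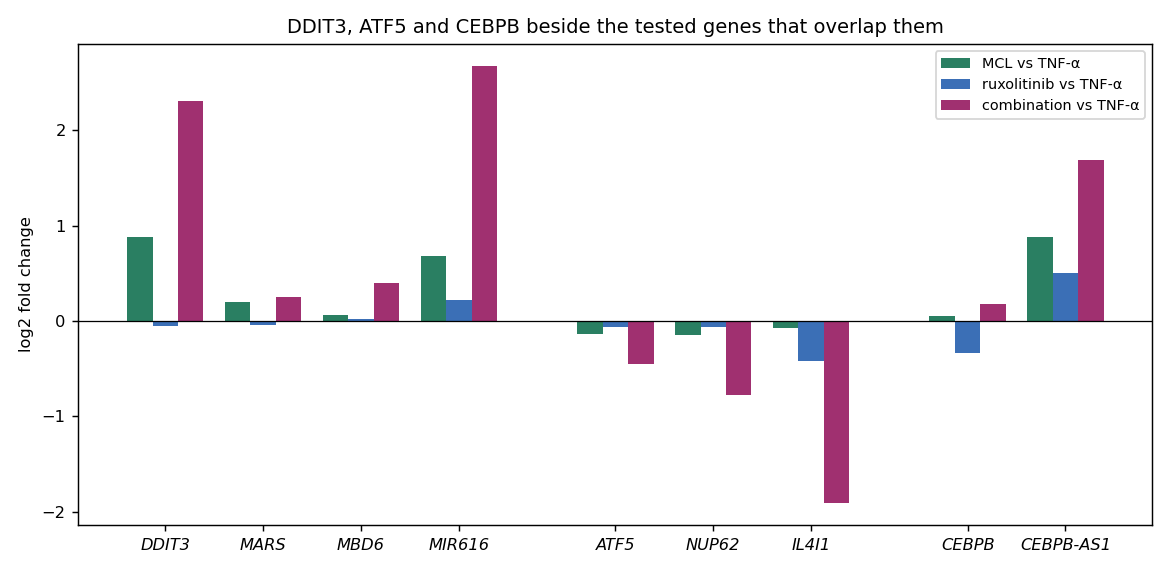
Log2 fold change (vertical axis, bars from 0) of DDIT3, ATF5 and CEBPB and of the tested genes that overlap them, in 3 comparisons. With both drugs MARS and MBD6 changed less than DDIT3 on the log2 scale (0.25 and 0.40 against 2.30), but from higher CPM levels. MIR616, with 165 counts in all, changed more (2.68). NUP62 and IL4I1 fell with ATF5.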

How the data were processed

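Per the labels, RNA of UKE1 cells was taken 3 h after treatment. The deposited table holds the authors' raw read counts per gene, not normalized, for 58735 genes and 15 libraries. Per the submitters' processing notes, the tools named are featureCounts 1.5.0-p3, HISAT2 2.0.5 and DESeq2 1.16.1, and the builds hg38 and mm10, without role or order. The sources used here state neither strand use nor multimapping. All 58735 genes matched GENCODE 29 in start, end and symbol. Control columns were read as the untreated group.

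Genes with low counts were removed with filterByExpr (minimum count 10), leaving 16146. edgeR 4.0.16 in R 4.3.3 fitted 1 coefficient per group over all 15 libraries with TMM scaling and the robust quasi-likelihood test (10 residual degrees of freedom). P-values were adjusted by Benjamini-Hochberg over all tested genes, with a threshold of 0.05. SE is the absolute log2 change over the square root of F. The method was tested on simulated data. The alternatives were DESeq2 size factors, library totals, no filter, DESeq2 1.42.0, only the groups compared, a replicate block and each library left out.

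The members and lists were chosen with earlier results of these data known. Named genes are the 8 members, the 2 protein-coding genes most correlated with each (log2 of CPM + 0.5, mean of at least 5 CPM), genes that overlap a member, and of each list up to 3 passing genes with the smallest p for MCL and the combination against TNF-α and up to 2 elsewhere. For PPP1R15A, 1 of the correlated genes is not reported here.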

Additional observations from a re-analysis of the deposited data

Results flagged for a closer look

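For each of the 8 genes the effect of MCL differed between cells with and without ruxolitinib, by a test of the difference itself in edgeR. The effect was taken against ruxolitinib for the combination and against TNF-α for MCL alone. The log2 difference was 1.59 for ATF3, 1.48 for DDIT3, 0.60 for TRIB3, 0.45 for CEBPB, 0.33 for PPP1R15A, 0.32 for CEBPG, 0.23 for ATF4 and -0.25 for ATF5. Of all tested genes 25% passed this test. With a library left out, 7 to 8 of the 8 genes passed. ATF5 did not pass without TNF-α replicate 1, MCL replicate 2, ruxolitinib replicate 2 or combination replicate 1.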

How the results depend on the processing

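Over the 88 log2 changes of the 8 genes, no value reversed among 1320 with a library left out or 528 under other alternatives. With a library left out, 24 no longer passed and 2 newly passed, and under the other alternatives 4 no longer passed and 1 newly passed. The number of the 8 genes that passed for ruxolitinib against TNF-α ranged from 1 to 2 with a library left out, and it was 1 without TNF-α replicate 2, TNF-α replicate 3 or ruxolitinib replicate 1. With library totals the share of higher calls among all genes moved from 53.0% to 42.4% for TNF-α, from 41.8% to 53.7% for MCL, from 32.8% to 45.4% for ruxolitinib and from 46.5% to 56.6% for the combination, and the median of all genes moved by at most 0.08. The cause was not tested.

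The groups share replicate numbers. The correlation of deviations over 30 pairs with the same number ran from -0.10 to 0.14, with 5 over 0.1. Its median was 0.02 for these pairs and -0.01 for pairs with different numbers. Of 15 libraries, 7 correlated best with their own number. Whether a shared number marks paired samples was not tested. With a replicate block the number of the 8 genes that passed was 8 for TNF-α, 6 for MCL, 2 for ruxolitinib, 7 for the combination and 8 for the non-additive effect, and 4326 genes passed for TNF-α against untreated. Low counts limit ATF3 and DDIT3 most, at 61 to 74 and 67 to 95 counts per untreated library.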
